A study of Homo sapiens with 8 samples.

Results

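Of 43569 accessible regions found by ATAC-seq in the erythroid precursor line HUDEP-2, 1094 (2.51%) held the full binding consensus of the transcription factor EGR1 close to the point of strongest signal. ATAC-seq reads out accessible chromatin as places where the transposase Tn5 could insert adapters. Regions were made by joining the peak lists of 4 libraries wherever peaks shared at least 1 bp. The summit of a region was taken from its highest-ranked peak, and a region was kept when 9 letters, GCGTGGGCG (here the T form) or GCGGGGGCG (the G form), stood on either strand within 100 bp of that summit on GRCh37. No accessibility value entered this choice beyond the calling of peaks and the position of the summit.

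HUDEP-2 is an established line of human erythroid progenitors made from umbilical cord blood. It grows in a serum-free medium with stem cell factor (SCF, the ligand of the receptor tyrosine kinase Kit), erythropoietin, dexamethasone and doxycycline. Cells carried a scramble guide RNA (sgControl) delivered by lentivirus as the control of a CRISPR interference experiment, went without growth factors for 5 h and then received either PBS or 50 ng/ml of SCF over 1 h, with 50000 cells per library and 2 libraries per treatment. The study named them biological duplicates, the labels do not tie them to separate cultures, and p-values therefore measure the spread between these libraries, which may be technical. The 4 samples with a guide against EGR1 (2 PBS, 2 SCF) were not analysed here.

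EGR1 is a zinc-finger protein encoded by an immediate early gene that growth factor receptors switch on through the MAPK cascade. Its 3 fingers read a GC-rich word, and the related proteins EGR2, EGR3 and EGR4 read the same word. NAB1 and NAB2 are corepressors that bind EGR proteins, and NAB2 is itself a known EGR1 target. GC-rich words of this kind are common in CpG island promoters, where SP and KLF proteins bind similar sequences, so that a match to the word is not evidence that EGR1 was bound.

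Sequences around the word are shown for the members on which the later results turn, read from GRCh37 with the word in capitals and 5′ to 3′ on the strand given. Where a match lies on the other strand it appears in capitals as its reverse complement. The first set comprises genes tied to EGR proteins and to growth factor signalling. These are NAB1 (chr2:191513559-191513647, plus strand), NAB2 (chr12:57482501-57482661, minus), TGFB1 (chr19:41859879-41859983, plus) and the serum response factor gene SRF (chr6:43138932-43138992, plus).
NAB1: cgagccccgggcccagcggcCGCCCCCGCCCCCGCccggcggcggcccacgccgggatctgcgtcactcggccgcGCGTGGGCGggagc
NAB2: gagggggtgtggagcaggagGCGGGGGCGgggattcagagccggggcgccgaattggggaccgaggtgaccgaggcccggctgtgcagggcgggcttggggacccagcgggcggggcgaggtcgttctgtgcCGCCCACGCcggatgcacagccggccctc
TGFB1: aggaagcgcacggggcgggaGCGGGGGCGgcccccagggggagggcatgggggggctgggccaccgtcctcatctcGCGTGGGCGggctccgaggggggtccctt
SRF: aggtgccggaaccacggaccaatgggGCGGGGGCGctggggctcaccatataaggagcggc
The NAB1, NAB2 and TGFB1 windows each held both forms, which was the case in 17 of the 1094 members.

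The next set is drawn from the 5 members with the widest separation of SCF from PBS ranks in each direction. These are an ITGB3 intron (chr17:45365981-45366041, minus), a site near LSM10 (chr1:36866676-36866736, plus), the LIN28B promoter (chr6:105389319-105389384, plus), the RYK promoter (chr3:133969476-133969504, minus) and a site near ICE1 (chr5:5494817-5494984, minus).
ITGB3: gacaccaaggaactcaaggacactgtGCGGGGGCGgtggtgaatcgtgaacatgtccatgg
near LSM10: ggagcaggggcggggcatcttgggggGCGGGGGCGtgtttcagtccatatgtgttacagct
LIN28B: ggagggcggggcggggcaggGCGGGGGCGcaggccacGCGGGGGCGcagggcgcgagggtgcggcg
RYK: cggcggccatGCGTGGGCGgcgcggctgg
near ICE1: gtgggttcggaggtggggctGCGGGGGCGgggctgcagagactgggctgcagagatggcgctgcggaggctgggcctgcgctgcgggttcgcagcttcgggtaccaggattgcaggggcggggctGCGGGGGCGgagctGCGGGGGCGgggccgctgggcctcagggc
RYK held the T form, and the site near ICE1 held 3 G forms.

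The last set shows a member called only with SCF (MAPK4, chr18:48086355-48086415, plus), a member called only with PBS (SH3KBP1, chrX:19905859-19905919, plus), and the extremes of accessibility. MIR3687 (chr21:9826821-9826881, minus) had the highest mean rank of all members, and the distal site in an intron of ENSG00000290199 (chr22:24256229-24256289, plus) had the highest mean rank of the distal members.
MAPK4: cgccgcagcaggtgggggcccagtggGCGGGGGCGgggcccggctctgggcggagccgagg
SH3KBP1: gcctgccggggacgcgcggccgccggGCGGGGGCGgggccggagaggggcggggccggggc
MIR3687: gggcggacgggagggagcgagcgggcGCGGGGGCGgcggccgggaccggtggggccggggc
ENSG00000290199: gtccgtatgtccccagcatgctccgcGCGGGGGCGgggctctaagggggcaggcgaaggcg
Each of these windows held the G form alone.

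The G form was far more frequent than the T form. It stood alone in 909 members and the T form alone in 168, and over all regions the shares were 2.13% for the G form and 0.425% for the T form. The 1208 matches lay on the plus strand in 598 cases and on the minus strand in 610. Most members (994) held a single match, 88 held 2, 10 held 3 and 2 held 4. When only the first 7 letters of the T form (GCGTGGG) were required, 1655 regions had a match and 247 of them were among the 1094.

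The 4 lists held 29269 to 33616 peaks. With PBS replicate 1 set to 1, the relative depth recovered from the deposited values reached 1.42 for PBS replicate 2 and stayed at 0.883 and 0.843 for the SCF replicates. The promoters of 12 of 16 erythroid genes, GATA1, KLF1 and EPOR among them, were called in all 4 libraries. Promoters of the fetal globin genes HBG1 and HBG2 were called in none, and those of ALAS2 and HBA1 in 1. Of 20 genes of other lineages, 12 had no called promoter in any library and 6 had a promoter called in all 4, so a called promoter was not particular to the erythroid list.

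Members were mostly promoters and were found in nearly every library. A summit lay within 1 kb of an annotated transcript start in 941 members (86.0%), against 40.6% of all regions. The remaining 153 were distal, with 68 in introns, 65 between genes and 20 in exons. Individual libraries called 999 and 1019 members with PBS and 992 and 993 with SCF, that is 90.7% to 93.1%, while they called 66.1% to 76.5% of all regions. All 4 libraries called 916 members (83.7%), against 51.3% of all regions. The share was 87.2% among promoter members and 62.1% among distal members.

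GC content separated members from other regions, as the word itself fixes in part. The 201-bp window around the summit had a median GC content of 74.6% in members (quartiles 69.2% and 79.1%) and 53.7% in regions without the word. Promoter members were at 75.1% and distal members at 70.1%, compared with 65.7% and 48.8% over all promoter and distal regions. The ratio of observed to expected CpG was 0.905 in members and 0.347 over all regions. Members were also wider, with a median of 937.5 bp against 606 bp. Members with the T form alone had a lower GC content (70.1%) and a lower share of promoters (80.4%) than members with the G form alone (75.1% and 87.0%).

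The share of regions with the word climbed steeply with GC content. Among all regions the share was 0.121% at a GC content of 40% to 50%, 0.458% at 50% to 60%, 2.63% at 60% to 70%, 9.77% at 70% to 80% and 23.2% at 80% to 90%. Promoter and distal regions of like GC content were closer to each other than their overall shares of 5.32% and 0.591%. At 70% to 80% the shares were 9.97% for promoter and 8.42% for distal regions, and at 80% to 90% they were 23.0% and 25.9%, the last from 15 of 58 regions. Promoters kept the higher share in the lower classes, with 3.31% against 1.39% at 60% to 70%.

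**Figure D1:**
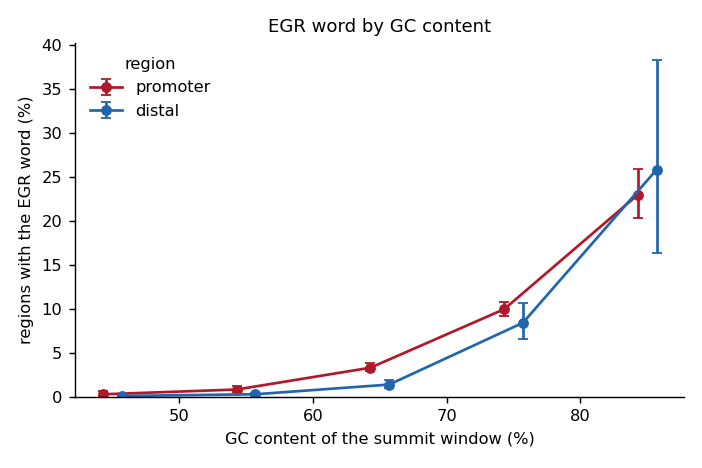
Percent of promoter (red) and distal (blue) regions with the EGR word by GC content of the 201-bp summit window, in classes of 10 percentage points, with 95% Wilson intervals that cover counting error only. Both curves climb from under 1% at 40% to 50% GC to 23.0% and 25.9% at 80% to 90%, where the distal point rests on 58 regions.

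For a comparison at like GC content, regions without the word were weighted to the GC distribution of the members over classes of 5 percentage points. Weighted in this way, 81.3% of the other regions were promoters and 77.4% were called in all 4 libraries, so that the members' 86.0% and 83.7% stood 4.72 and 6.33 percentage points higher. Most of the distance to the unweighted shares of all regions (40.6% and 51.3%) was thus also present in GC-rich regions without the word.

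The word did not concentrate at the summit. Of the 1208 matches, 292 (24.2%) had their centre within 25 bp of the summit, where a flat profile across the window would place 26.4%. The median distance was 48.5 bp. Regions just inside and just outside the limit of the window were alike. The 261 members whose nearest match lay 73 to 96 bp away were promoters in 86.6% and had a median GC content of 74.6%, while the 266 regions with the nearest match at 97 to 120 bp were promoters in 86.8% with a median GC content of 72.1%. Their median mean ranks were 65.0 and 64.2.

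Relative to genes, the word lay mainly just upstream of transcription starts. Of 973 matches within 1 kb of the start of a protein-coding transcript, 732 (75.2%) were upstream, at a median position of −47 bp (quartiles −111 and −1 bp). The orientation matched that of the gene in 566 (58.2%). The summits of 882 promoter members with a coding start were upstream in 64.5%, at a median of −40.5 bp, whereas those of 14219 other promoter regions were upstream in 50.6%, at a median of −1 bp. Coding starts on both strands within 1 kb were present at 7.86% of promoter members and at 8.71% of all promoter regions.

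**Figure D2:**
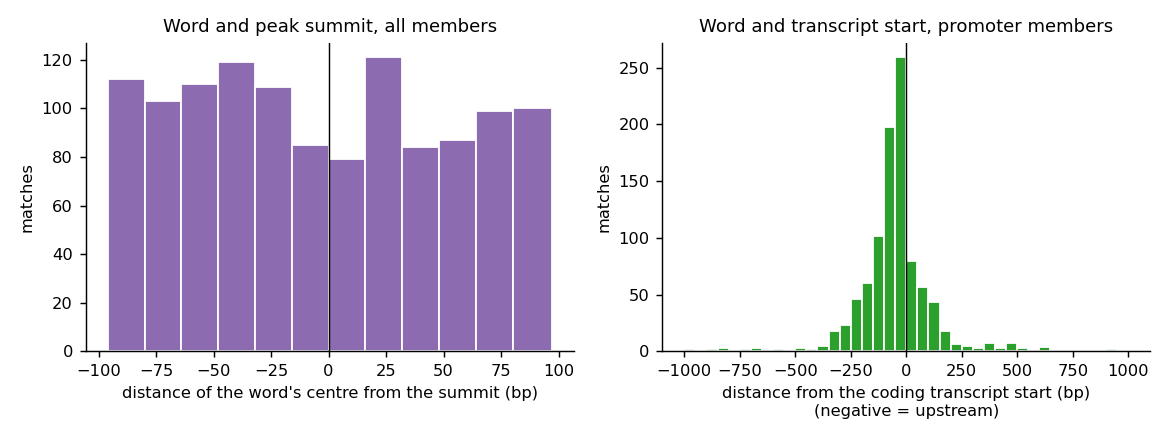
Number of matches by distance of the word from the peak summit in all members (left, bp) and from the nearest protein-coding transcript start in promoter members (right, bp, negative upstream). The left profile is flat, with 24.2% of matches within 25 bp, whereas the right profile peaks just before the start, at a median of −47 bp.

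Distal members lay nearer to genes than distal regions in general. Their median distance to the start of a protein-coding gene was 16.9 kb (quartiles 4.64 and 45.6 kb), compared with 31.2 kb (12.5 and 74.4 kb) over all distal regions. Within 10 kb lay 59 of 153 distal members, against 5104 of all 25888 distal regions. Beyond 100 kb lay 17 (11.1%), against 18.3% of all distal regions. These distances were not compared at like GC content. By chromosome, members made up 4.02% of the regions on the gene-dense chromosome 19 (107 of 2665), 3.62% on chromosome 17 and 2.51% on chromosome 1, with none on Y.

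Binding words of other factors in the same window followed GC content for the most part. The GC box read by SP and KLF proteins (GGGCGG, outside the EGR word) occurred in 791 members (72.3%), in 26.2% of all regions and in 70.0% of other regions weighted to the members' GC content. With boxes that share letters with the EGR word counted too, it was in 982 members (89.8%) and 26.6% of all regions. The weighted share stayed at 70.0%, so the EGR word itself often completed a GC box. The AP-1 word TGANTCA was in 27 members (2.47%), 8.43% of all regions and 2.28% after weighting. GATA words (AGATAA or TGATAA), read by the erythroid factor GATA1, were in 25 members (2.29%), 25.4% of all regions and 3.14% after weighting. Members were thus poor in AP-1 and GATA words to about the degree that GC-rich regions without the EGR word were.

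Other words were compared in the same way. CCAAT, read by NF-Y, was present in 248 members (22.7%), in 22.1% of all regions and in 14.6% after weighting. The cAMP response element TGACGTCA, read by CREB proteins, was in 32 members (2.93%), 0.682% of all regions and 1.20% after weighting. ETS words (CCGGAAG) were in 8.78% of members, 4.44% of all regions and 8.36% after weighting. In the same order, the NRF1 palindrome was in 6.40%, 2.18% and 5.94%, and YY1 words (AAGATGG) in 2.74%, 3.52% and 2.35%. E-boxes (CANNTG) were in 39.7%, 61.2% and 43.7%, and the CTCF core in 13.0%, 9.64% and 15.8%. Among distal members, 12 of 153 (7.84%) held an AP-1 word and 11 (7.19%) a GATA word, while the shares over all distal regions were 11.5% and 36.4%. These distal shares were not weighted by GC content, which had a median of 70.1% in distal members and 48.8% over all distal regions. All words were searched on both strands, and those that contain GGGCGG can overlap the words of other GC-rich factors.

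Genes with a member at their promoter were counted in lists grouped by role. Over all protein-coding genes with an accessible promoter, 987 of 13463 (7.33%) had a member there. Because the lists were chosen with earlier results of these data known and promoters differ in GC content, these counts are descriptions without a test. Both corepressor genes, NAB1 and NAB2, had a member at the promoter, and none of the 4 EGR genes did, which gave 2 of 6. The list of textbook EGR1 targets had 5 of 15 accessible promoters with a member (NAB2, TGFB1, PDGFA, F3 and VEGFA). The Kit and MAPK pathway list had 4 of 30 (GRB2, HRAS and SPRY2 among them), immediate early genes 3 of 29 (KLF2, KLF10 and SRF), erythroid regulators 3 of 24 (KLF13, ZBTB7A and STAT5B), and the loci at which the study named Kit response elements 3 of 14 (NAB2, ZBTB7A and VEGFA). The last list was drawn by the study from this kind of comparison in the same samples and is not independent evidence of a direction. The members counted there lie at promoters. The element that the study deleted at NAB2 and the one it described in a ZBTB7A intron lie downstream of these promoters and are other sites.

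The EGR genes themselves had called promoters but no word near a summit. The EGR1 promoter region (chr5:137799697-137801738) was called in all 4 libraries, with ranks of 69.6 and 73.2 with PBS and 73.2 and 74.7 with SCF. Rank here is the percentile of a peak's fold enrichment within its own list, 100 being the highest. The region held the word 3 times, the nearest 403 bp from the summit, and there was no member within 250 kb of the EGR1 start. Promoter regions of EGR2, EGR3 and EGR4 held no word over their whole length. One EGR2 region (chr10:64576140-64576939) was called in all 4 libraries, at ranks of 80.2 and 81.6 with PBS and 75.2 and 72.8 with SCF. Both PBS ranks there were above both SCF ranks. Another EGR2 region (chr10:64578414-64579198) ranked 31.8 and 40.7 with PBS and 25.7 and 37.5 with SCF, so the treatments overlapped. A further EGR2 region was called in the PBS libraries alone. EGR3 was called in SCF replicate 1 alone at rank 0.482, and EGR4 in the PBS libraries alone at ranks of 6.58 and 22.6. The member nearest to EGR4 was the promoter of FBXO41, an F-box protein, called in PBS replicate 2 alone at rank 9.58.

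At the NAB1 promoter (chr2:191513108-191514616) both SCF ranks were above both PBS ranks. The ranks were 73.1 and 77.8 with PBS and 90.9 and 83.9 with SCF, and the summit pileups, that is the fragments stacked over the summit, were 58, 90, 73 and 68 in the same order. On the log2 scale of fold enrichment SCF was above PBS by 0.30 ± 0.14 (SE, limma, unadjusted p = 0.0497, adjusted p = 0.732). The 4 libraries were ordered by treatment, but the difference did not pass the test across all regions.

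At the NAB2 promoter (chr12:57480833-57483075), which also serves NEMP1 in the other direction, the ranks were 50.7 and 54.4 with PBS and 62.3 and 55.3 with SCF. The pileups were 88, 122, 116 and 96. The treatments did not overlap here either, but the gap was 0.902 rank points and the log2 difference 0.16 ± 0.20 (SE, limma adjusted p = 0.935). The NAB1 and NAB2 regions each held the word 4 times over their full length, of which 3 and 2 fell within the summit window.

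Among the other textbook targets the treatments overlapped at TGFB1, F3 and VEGFA. TGFB1, which encodes transforming growth factor β1, ranked 55.3 and 52.6 with PBS and 51.9 and 52.8 with SCF. F3, the gene of tissue factor, ranked 41.5, 54.8, 43.4 and 44.5 in the order PBS replicates 1 and 2 and SCF replicates 1 and 2. VEGFA, the gene of a vascular growth factor, ranked between 5.49 and 8.24 in spite of pileups of 62 to 84, since the rank is set by the ratio to the local background. PDGFA, which encodes a platelet-derived growth factor chain, was called in PBS replicate 1 alone, at rank 5.95. Upstream of ATF3, a stress-induced factor of the ATF/CREB family, a member at the start of the noncoding gene ENSG00000288007 (chr1:212731737-212732673) ranked 86.6 and 69.8 with PBS and 56.7 and 60.5 with SCF. The PBS ranks there were above the SCF ranks by 9.27 points at the nearest. Its window also held an AP-1 word and a cAMP response element, and its log2 difference was −0.44 ± 0.19 (SE, limma adjusted p = 0.697).

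Among immediate early genes the SRF promoter was steady. SRF encodes the serum response factor that switches on many of these genes, and its promoter (chr6:43138532-43139446) ranked 64.8, 67.8, 69.3 and 65.6. KLF10, a zinc-finger repressor induced by TGF-β, was as steady, at 60.8, 58.7, 61.3 and 60.6, with both forms of the word. KLF2, a Krüppel-like factor, ranked 39.9 and 62.0 with PBS and 53.9 and 38.5 with SCF, so its replicates differed more than its treatments. Upstream of NR4A3, an orphan nuclear receptor gene, a promoter of ENSG00000237461 ranked 49.3 and 50.1 with PBS and 55.6 and 52.8 with SCF, a separation of 2.70 points. An intronic member in HOOK2 near JUNB, an AP-1 subunit gene, was called in 3 libraries at ranks of 0.146, 1.01 and 11.1, and not in SCF replicate 2. The member near ZFP36, an mRNA decay factor, was called in PBS replicate 1 alone at rank 0.0265.

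Among the promoters of the Kit and MAPK pathway, GRB2 was a strong site and SPRY2 and HRAS were weaker ones. GRB2 encodes the adaptor that links receptor tyrosine kinases to RAS, and its promoter ranked 86.2 and 88.3 with PBS and 79.3 and 84.0 with SCF, which left the treatments 2.18 points apart. SPRY2, a feedback inhibitor of the pathway, ranked 12.2 and 41.6 with PBS and 33.5 and 19.7 with SCF, a wider spread between replicates than between treatments. HRAS, one of the RAS genes, was a weak site with the T form that ranked 6.15, 10.3, 7.40 and 27.2. None of them passed the test across all regions.

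Erythroid regulators with a member gave low to middling ranks. ZBTB7A, a repressor of the fetal globin genes, had a promoter member (chr19:4065597-4066136) that ranked 45.0 and 40.7 with PBS and 21.0 and 34.7 with SCF, with pileups of 192 and 239 against 132 and 119. The treatments did not overlap, by a gap of 6.06 rank points, and the log2 difference was −0.28 ± 0.22 (SE, limma adjusted p = 0.868). STAT5B, a mediator of erythropoietin signalling, ranked 31.9 and 11.0 with PBS and 42.8 and 21.0 with SCF. KLF13, another Krüppel-like factor, was called in both PBS libraries at ranks of 0.122 and 0.262 and in neither SCF library.

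The strongest members were promoters with ranks close to 100 in all libraries. MIR3687 (chr21:9826750-9827187), a microRNA gene within ribosomal DNA sequence, was at rank 100 to 3 digits in each library. GTF2IRD2, MSTO1, its pseudogene MSTO2P and the shared promoter of DET1 and ENSG00000173867 ranked from 99.3 upward. Around the word, 50 of 61 bases were the same at MSTO1 and MSTO2P, and reads from a gene and its pseudogene, as from ribosomal DNA, may be assigned to the wrong copy, so that these ranks are uncertain. The strongest distal members were an intron of the noncoding gene ENSG00000290199 (chr22:24255864-24256604) with ranks of 99.0, 97.1, 97.2 and 99.5, an intron of ENSG00000282863, and introns of FOXK1, LMTK3 and PAX5. The PAX5 intron, in the gene of a B-lineage factor, ranked 93.1 and 89.1 with PBS and 97.0 and 95.7 with SCF.

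Distal members ranked above other distal regions in every library, and promoter members ranked close to other promoters. Over the 916 members called in all 4 libraries the median of the mean rank was 72.0 (quartiles 51.6 and 86.2), compared with 63.3 over all regions called in all 4. The median was 73.3 both for promoter members and for promoters without the word, which at the members' GC content gave 70.6. Distal members had a median of 59.7, other distal regions 51.1, and at like GC content 53.4. Across the deciles of mean rank the share of members was 3.04% in the lowest, 5.996% in the ninth and 5.28% in the highest. Members with 2 or more matches did not rank higher than those with 1. Their median mean rank was 60.4 against 72.8, at a median GC content of 79.1% against 73.6%.

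**Figure D3:**
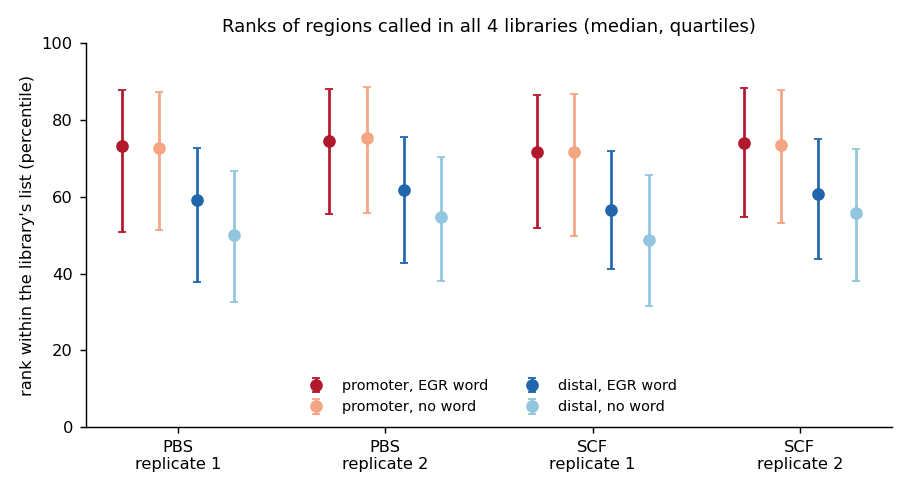
Median (point) and quartiles (bars) of the percentile rank within each library's list for promoter and distal regions called in all 4 libraries, with and without the EGR word. In each library promoters with and without the word lie within a few points of each other, and distal regions with the word lie above distal regions without it, with medians of the mean rank of 59.7 and 51.1.

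The comparison of SCF with PBS asks whether sites with the EGR word changed rank within 1 h of Kit activation. A rank is relative to the library's own list, so a change common to all peaks would not be seen. Regions not called in all 4 libraries are left out of these medians. Members as a whole kept their ranks. PBS libraries gave median ranks of 70.7 and 73.5 and SCF libraries of 69.6 and 72.3, so the treatments overlapped and the spread between replicates exceeded that between treatments. The median shift, SCF minus PBS, was −0.375 rank points (quartiles −4.64 and 3.21) in members and −0.534 over all regions called in all 4. It was −0.413 at promoter and −0.026 at distal members, and without SCF replicate 1 the median over all members was 0.320. The shift was above 0 in 425 members (46.4%), the same percentage as over all regions. In bulk libraries, fewer cells with an open site and a less open site in each cell cannot be told apart.

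GC-rich regions as a class ranked slightly lower with SCF, and members less so. Other regions weighted to the members' GC content had a median shift of −1.23 points, which left members 0.852 points higher. In single libraries, members ranked above the weighted regions by 2.52 and 2.54 points with PBS and by 2.52 and 3.83 with SCF. SCF replicate 1 thus gave the same distance as the PBS libraries. The spread of these library distances between replicates was 0.659 (SD), and the shift itself has no replicates. The distance was 0.879 points at promoters and 0.5001 at distal sites, and it was in the same direction in all 15 alternative settings, although it fell to 0.262 points without PBS replicate 2 and to 0.224 with a window of 250 bp. No test was made of it, since 2 libraries against 2 cannot give an exact p below 0.333.

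Members with the T form alone had a median shift of 0.165 points (137 members, 51.1% above 0) and members with the G form alone of −0.621 (766 members, 45.0% above 0). At like GC content the distances from other regions were 1.06 and 0.684 points. The 13 members with both forms had a median shift of 1.06, and 10 of them were above 0. Per library the T form medians were 74.1 and 76.1 with PBS and 72.3 and 76.8 with SCF, which overlap. The difference between the forms was not tested.

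Single members moved little. The shift ran from −26.8 to 40.6 points, and 772 members (84.3%) moved by less than 10 points, compared with 74.2% of all regions. Members are mostly promoters, and promoters moved less than distal regions. The quartiles of the shift were −4.60 and 3.01 at promoter members and −5.26 and 3.03 at promoters without the word. They were −5.35 and 5.47 at distal members and −7.44 and 7.46 at other distal regions. Both SCF ranks were above both PBS ranks in 140 members (15.3%; 16.0% of all regions) and the reverse held in 171 (18.7%; 19.3%). A rank gain, in which each SCF rank exceeded each PBS rank by 10 points or more, was met by 13 members (1.42%; 2.56% of all regions tested, and 1.25% after weighting by GC). The opposite rank loss was met by 12 (1.31%; 3.04% of all regions, and 2.93% after weighting). These shares were not tested against each other, and with peaks limited to a −log10 q of at least 5 there were 26 losses among 855 members. With 3 libraries in place of 4 the rule is easier to meet, and the order of the counts then depended on the library left out, with 67 gains and 46 losses without PBS replicate 2, 60 and 52 without SCF replicate 1, 36 and 64 without PBS replicate 1 and 34 and 98 without SCF replicate 2. Shares over all regions were not counted under these alternative settings, so whether such counts follow all regions is not known. Of the 13 gains in all 4 libraries 9 were promoters and 4 distal, and of the 12 losses 11 were promoters and 1 was distal. Gains made up 1.10% of promoter members (1.18% of all promoter regions) and 4.21% of distal members (4.56%), and losses 1.34% (2.25%) and 1.05% (4.18%).

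**Figure D4:**
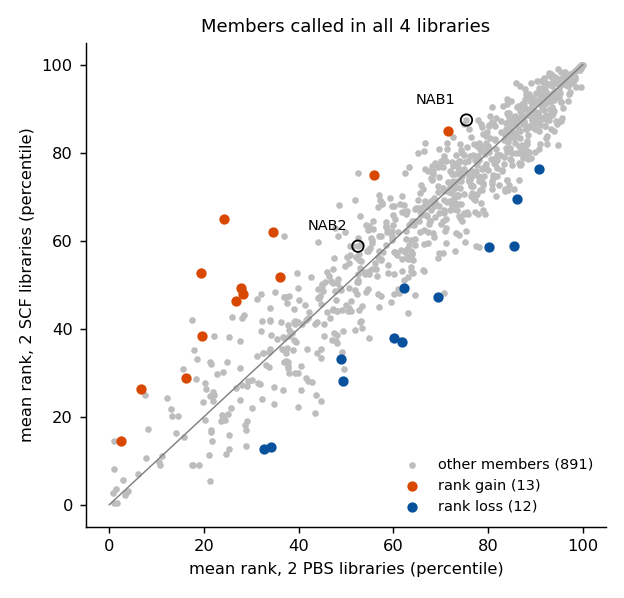
Mean percentile rank of each of the 916 members called in all 4 libraries, with the 2 PBS libraries on the x axis, the 2 SCF libraries on the y axis and the line of equal rank in grey. Most points follow the line, the 13 rank gains (orange) lie mostly at low to middle ranks and the 12 rank losses (blue) below the line, and NAB1 and NAB2 (open circles) lie above it.

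The widest gain was distal and held an AP-1 word beside the EGR word. It lay in an intron of ITGB3 (chr17:45365848-45366502), the gene of integrin β3, which with integrin αIIb forms the fibrinogen receptor of megakaryocytes and platelets. Its ranks were 13.4 and 35.2 with PBS and 68.8 and 61.0 with SCF, a gap of 25.9 points, with pileups of 10 and 13 against 23 and 21. The log2 difference was 0.88 ± 0.23 (SE, limma unadjusted p = 0.00183, adjusted p = 0.592). The window had a GC content of 52.2%, low for a member.

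The next gain lay between genes, at −3251 bp from the start of LSM10, a component of the U7 snRNP that processes histone mRNAs. The region (chr1:36866459-36867180) ranked 27.8 and 11.1 with PBS and 48.7 and 56.7 with SCF, with pileups of 24 in both PBS libraries and of 41 and 35 with SCF. Its log2 difference was 0.69 ± 0.23 (SE, limma adjusted p = 0.672), and its window also held an ETS word. Promoter gains followed at ISYNA1, the enzyme that makes inositol phosphate, with ranks of 20.3 and 18.9 against 35.6 and 41.0, and at SLC6A12, a betaine transporter, with 27.6 and 27.9 against 42.0 and 56.4. UBTF, an activator of ribosomal RNA transcription, ranked 27.9 and 28.8 with PBS and 54.1 and 41.9 with SCF.

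The other 8 gains were at HPCA, UNC93B1, EBI3, MYADM, WDR44 and ENSG00000289923, and at sites near MAB21L3 and ATP5F1D. Their shifts ran from 12.1 to 27.4 points. The site near MAB21L3 was the only gain with the T form alone, and MYADM held both forms. The 13 gains started from low ranks in many cases, such as 2.03 and 2.95 with PBS near ATP5F1D, and WDR44 was the strongest of them, with 69.6 and 73.5 against 85.4 and 84.4.

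The widest loss was at a promoter of LIN28B, the gene of an RNA-binding protein that blocks let-7 maturation. Its ranks (chr6:105388850-105389672) were 87.1 and 83.9 with PBS and 61.0 and 56.4 with SCF, with pileups of 27 and 34 against 19 and 16. The log2 difference was −0.62 ± 0.16 (SE, limma unadjusted p = 0.00164, adjusted p = 0.589). RYK, a Wnt receptor with a T form at its promoter, ranked 65.9 and 73.0 with PBS and 46.0 and 48.5 with SCF. SLC23A2, a vitamin C transporter, ranked 49.1 and 49.5 against 26.3 and 30.02, and the noncoding gene ENSG00000232377, also with the T form, 60.6 and 62.9 against 41.3 and 32.6.

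The distal loss lay 74126 bp downstream of the start of ICE1, which encodes a subunit of the little elongation complex. The region (chr5:5494585-5495202) ranked 81.8 and 78.7 with PBS and 62.3 and 54.9 with SCF. The other 7 losses were promoters of SLC35F3, P2RX5, NTN1, EFCAB13, SLC39A3 and PDGFC and the shared promoter of GIT1 and ANKRD13B. PDGFC, a platelet-derived growth factor gene, ranked 64.0 and 60.5 with PBS and 49.6 and 49.0 with SCF. EFCAB13, relative to whose start the ITGB3 member lies at −34592 bp, ranked 89.9 and 91.6 against 77.0 and 75.8, so these neighbouring members differed in direction.

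**Figure D5:**
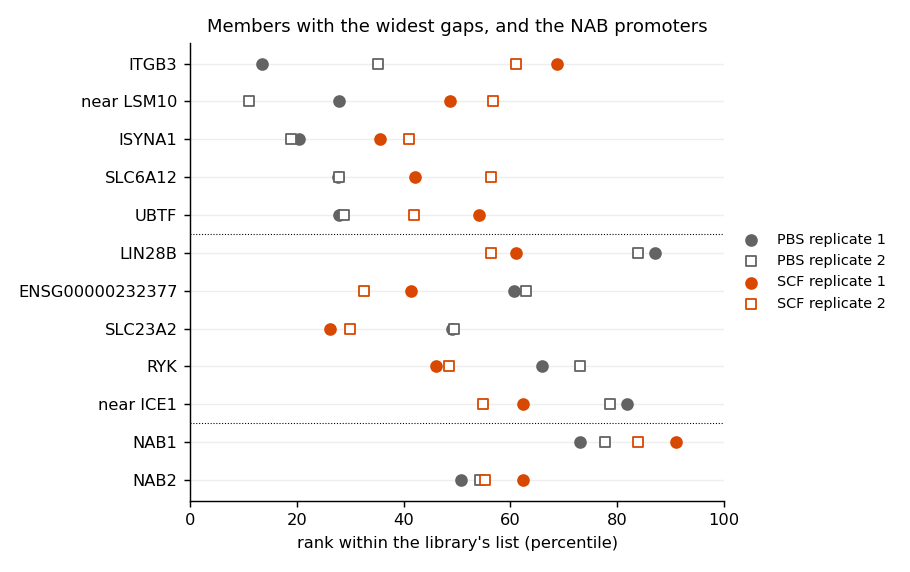
Percentile rank in each of the 4 libraries (grey, PBS; orange, SCF; circles, replicate 1; squares, replicate 2) for the 5 members with the widest rank gains, the 5 with the widest rank losses and the NAB1 and NAB2 promoters. Members were chosen for this separation except at NAB1 and NAB2, where the SCF ranks are also above the PBS ranks, by 6.14 and 0.902 points.

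Few members were called under a single treatment. Both SCF libraries but no PBS library called 7 members (0.640%; 1.65% of all regions, and 0.855% after weighting by GC), and 12 were called in both PBS libraries alone (1.10%; 2.37% of all regions, and 1.38% after weighting). All 19 held the G form. SCF-only members were weak peaks, with pileups of 7 to 13. MAPK4, the gene of an atypical MAP kinase, had ranks of 45.5 and 37.7 and pileups of 13 and 11. The others were the promoters of GPR174, TAFA5, CHRNB4, UNC80 and RBM24 and a site near TOPAZ1. The GPR174 promoter, with a GC content of 48.8%, also held a GATA word.

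PBS-only members ranked from 0.122 to 43.3 in their libraries, at pileups of 7 to 62. SH3KBP1, which encodes the adaptor CIN85, had ranks of 27.5 and 35.0 and pileups of 10 and 13. LIFR, the receptor of leukaemia inhibitory factor, ranked 43.3 and 13.6, and CACNA2D2, a calcium channel subunit with 3 matches, 4.16 and 41.1. GLIPR1L1 and an ACAP3 intron were in the same class, as were KLF13, EPS8L2, COL9A1, DMRT2, a MYO1C intron and the noncoding genes ENSG00000287356 and ENSG00000273069. PBS replicate 2 was the deepest library at 1.42 times PBS replicate 1, and both SCF libraries were shallower. The part of depth in these calls was not tested, and the absence of a peak means that none passed the threshold of the list.

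No member passed the test across all regions. With limma on log2 fold enrichment over the 22355 regions called in all 4 libraries, 0 regions had an adjusted p under 0.05 (0%), and 0 of 916 members did, the lowest adjusted p being 0.516. At an unadjusted p under 0.05 there were 1524 regions (6.82%) and 37 members (4.04%), of which 20 were higher and 17 lower with SCF. The median difference over members was 0.00 on the log2 scale, with a median SE of 0.16. The count of members stayed at 0 with pileups, percentile ranks or a replicate block in place of the main setting, and at an unadjusted p under 0.05 it was 33 to 52 in settings that kept all 4 libraries.

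The share of peaks with the word was also compared between treatments. Each peak was searched around its own summit. The word was found in 3.43% (95% Wilson interval 3.23% to 3.64%) and 3.03% (2.85% to 3.22%) of the peaks of the PBS libraries and in 3.51% (3.31% to 3.73%) and 3.03% (2.85% to 3.22%) of those of the SCF libraries. The mean was 3.23% ± 0.279 with PBS and 3.27% ± 0.341 with SCF (SD, n = 2), a difference of 0.0426 percentage points (exact permutation test, two-sided, p = 1, in a design that cannot go below 0.333). The replicates differed by more than the treatments.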

How the data were processed

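ATAC-seq peak lists of 4 sgControl HUDEP-2 libraries (2 PBS, 2 SCF) were used, with groups from the labels. Members and gene lists were chosen with earlier results of these data known. The submitters' processing notes name bcl2fastq, Bowtie2 and SAMtools, and the study's methods the ENCODE ATAC-seq pipeline. The peak caller and its version are not given in the sources used here. The methods and notes name hg38, but the header of each deposited list and the series text name hg19, which was followed. When peaks were placed on GRCh37, 0 chromosomes were exceeded, a check of lengths that does not by itself tell the builds apart. Replicate numbers within the peak names differ from the labels, which were followed.

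Per the file headers and format, the authors' columns hold a whole-number score, the fold enrichment (a ratio of summit pileup to local background), and the −log10 of the p-value and q-value. The deposited lists had been limited to q-values of up to 0.0497. The score was not used. Lists were called per library and merged at 1 bp (43654 regions, 85 of them off the 24 chromosomes used). Fold enrichment was ranked within each list, since read totals are unknown. Whole-number pileups and relative depth were recovered from fold enrichment and −log10 p (100% of peaks with a −log10 p under 300). Wilson intervals cover counting error only.

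Sequence came from GRCh37 and genes from GENCODE release 44 lifted to it. Promoters lie within 1 kb of a transcript start. GC weighting averaged medians or shares of regions without the word over classes of 5 percentage points with at least 20 such regions, which left out 1 member. In place of the study's MAnorm, which needs reads, limma with an intensity trend was fitted to quantile-normalised log2 fold enrichment over all regions called in 4 libraries, with Benjamini-Hochberg adjustment and a threshold of 0.05, without a replicate block. It was also run on simulated regions with planted changes larger than the log2 differences given above, so its power at those sizes was not measured. Members were named by these rules: promoters, or sites within 15 kb, of listed genes, the 5 highest-ranked promoter and distal members, the 5 widest gaps each way, the 5 highest-ranked called under 1 treatment, the 5 with most matches, any past the limma threshold and any within 250 kb of the EGR1 start (none in either case). Some members that these rules name are not reported here. Remaining gains, losses and single-treatment members were named after their values were seen. Alternatives covered window, form of the word, promoter distance, ranking, gap, q-value, list length, normalisation, block and leaving out each library. Python 3.11.15, numpy 2.4.6, pandas 2.3.3, scipy 1.17.1, pysam 0.24.0, matplotlib 3.10.9, R 4.3.3 and limma 3.58.1 were used.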

Additional observations from a re-analysis of the deposited data

How the results depend on the processing

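Of 149 recomputed values, 83 were counted as unchanged. Medians and percentages had to move by less than a replicate spread, and counts of members by at most 1.5 times. Counts from limma had to be identical. The share of peaks with the word had only to keep its sign (8 of 11 settings), whatever its size. Among the unchanged values were the median shift (13 of 13 settings) and its distance from GC-weighted regions (15 of 15), which ran from −0.984 to 0.320 and from 0.262 to 1.33 points when single libraries were left out. The spreads used as limits came from rank levels of single libraries. They were 1.92 points for the shift and 0.659 for the distance. The first is wide beside the shift itself (−0.375), so that a change of its sign counted as unchanged. The second is wide beside the distance itself (0.852). Falls of the distance to 0.262 without PBS replicate 2 and to 0.224 with a 250-bp window therefore also counted as unchanged. The shift was above 0 without SCF replicate 1 (0.320) and when only the T form was searched (0.290).

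With a window of 50 bp or 250 bp there were 543 or 2492 members, when only the T form was searched 185 (members with both forms included) and with the 7-letter word 1655. Promoters made up 81.1% (T form), 87.0% (G form), 67.9% (7-letter word), 87.7% (−log10 q of at least 5), 83.0% and 91.0% (promoters of 500 bp and 3 kb), 62.0% (gene starts of coding genes only) and 86.1% to 87.1% without single libraries. The setting with gene starts leaves out the other transcript starts of coding genes as well as noncoding genes. With every transcript start kept, 882 promoter members had a protein-coding start within 1 kb. The GC difference of 20.9 percentage points became 16.4 (T form), 13.9 (7-letter word), 15.3 (whole region), 17.9 (−log10 q of at least 5), 19.4 (lists of equal length) and 19.4 to 20.4 without single libraries.

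The 13 rank gains became 6 (50 bp), 29 (250 bp), 2 (T form), 29 (7-letter word), 36 (gap of 5 points), 2 (gap of 20), 4 (pileup) and 34 to 67 without single libraries. The 12 losses became 2, 45, 3, 26, 51, 1, 7 and 46 to 98 in the same order, and 26 with −log10 q of at least 5. By pileup 3 of the 4 gains and 4 of the 7 losses were among the main ones. SCF-only members were 1 (50 bp), 20 (250 bp), 0 (T form), 26 (7-letter word) and 15 to 23 without single libraries. PBS-only members were 4, 21, 0, 30 and 24 to 38, and 7 with lists of equal length. Counts climb when a library is left out because fewer libraries must fulfil the rule. The same counts over all regions were not made in these settings, so an excess of gains or losses cannot be ascribed to members.

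The SCF minus PBS share of peaks with the word turned to −0.0652 with a 50-bp window, −0.155 without PBS replicate 2 and −0.198 without SCF replicate 1, and ran from −0.198 to 0.283 over the libraries left out. The cause was not tested. With limma, 3 to 12 regions and 0 members were called without single libraries, where the lone sample is assumed to vary like the others.

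With the replicate number as a block, 0 regions and 0 members were called, with 1625 regions and 37 members at an unadjusted p under 0.05. The numbers were not shown to pair the libraries (correlation of deviations 0.0114 over 22355 regions, −0.0204 over 916 members, from 2 pairs). Depth limits weak sites, and 2 libraries per treatment limit every comparison.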
